A study of Macaca mulatta with 43 samples.

Results

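The cytosolic ribosomal protein genes were followed in medial prefrontal cortex of 43 adult male rhesus macaques, with small and large subunit compared by treatment and cohort. A gene was included when at least 1 probeset of the rhesus array carried its symbol alone in the platform's probe table and the symbol was RPL or RPS with a number, RPSA, RPLP0, RPLP1 or RPLP2. The kinases named RPS6K were left out. The rule gave 67 probesets of 39 genes, 26 of the large and 13 of the small subunit, among 13705 gene symbols on 24151 probesets tested. Each gene is represented by the probeset with the highest mean over all arrays, and all 39 passed the filter on low values.

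In all, 32 animals drank ethanol and 11 were controls, with 1 array per animal. All were 5 to 11 years old. Ethanol intake was started with schedule-induced polydipsia, in which timed food delivery prompts drinking, and for the following year drinkers could choose between water and a 4% (w/v) ethanol solution during 22 h of each day. Controls had water and a maltose dextran solution matched in calories to a drinker's intake. Cohort 4 held 11 drinkers and no control, cohort 5 held 8 drinkers and 5 controls, cohort 7a held 8 and 4, and cohort 7b held 5 and 2. All animals were housed singly, and the RNA of each came from Brodmann areas 24, 25 and 32 combined. RNA was isolated with an RNeasy Mini kit in cohorts 4 and 5 and with an AllPrep kit in cohorts 7a and 7b, and the 2 sets were run in separate array processing batches. A difference between the sets can therefore not be told apart from a difference in kit or processing.

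A ribosome has a small subunit, which reads the mRNA, and a large subunit, which joins amino acids and carries the exit tunnel for the growing protein. Ribosomal protein mRNAs begin with a terminal oligopyrimidine tract, and their translation is controlled together through mTOR. In neurons, these mRNAs are also found in dendrites and axons, away from the nucleolus where most ribosomal proteins join the ribosome. Values below are RMA values on the log2 scale, so that a difference of 1 is a factor of 2 in array signal. Levels are compared between animals for 1 probeset and never between probesets. Since the tissue holds many cell types, fewer cells of a type and less RNA per cell cannot be told apart.

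The 2 controls of cohort 7b stood apart from all other arrays in these genes. With each gene set to its own mean over the 43 arrays, the mean of the 26 large subunit genes was 0.45 and 0.50 in these animals, and at most 0.17 in the other 41. The mean of the 13 small subunit genes was 0.40 and 0.45 there, against at most 0.27 elsewhere. Results on cohorts 7a and 7b are therefore also given within each cohort.

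In the fit of all 43 arrays, 8 of the 39 genes were lower in drinkers than in controls and 1 was higher (limma, Benjamini-Hochberg adjusted p under 0.05 over all probesets tested). The lower genes were RPL22L1, RPL26, RPL19, RPL30 and RPL35A of the large and RPS18, RPS6 and RPS16 of the small subunit. The higher gene was RPL7L1. Over all probesets tested, 16.2% passed, 10.6% lower and 5.57% higher. Among the 900 probesets with a mean of 11 or over, 17.1% were lower and 7.33% higher, and 6 of the 25 genes in that range were lower. The median log2 difference was -0.15 over the large subunit, -0.15 over the small subunit and -0.04 over all probesets. That fit had no term for cohort or batch, and cohort 4 held no controls. With cohort as a block 28 genes passed (33.3% of all probesets), with processing batch as a block 16 (22.7%), and with batch and the RNA integrity number in the fit 0 (0.762%), where 11 had an unadjusted p under 0.05 in limma. With cohort as a block and the integrity number as a covariate 6 passed (4.89%), where 20 had an unadjusted p under 0.05 in limma. The share of all probesets at that unadjusted threshold was not computed for these 2 fits. Both fits with the integrity number dropped 1 control of cohort 7b, which had none. The count also depended on single controls. Without 1 or the other control of cohort 7b, 2 genes passed (7.12% and 7.24% of all probesets). Leaving out any 1 of 4 of the 5 controls of cohort 5 gave 15 to 18 (19.8% to 21.2%). Without 1 or the other of 2 controls of cohort 7a, 5 passed (10.4% and 10.6%). The share of all probesets thus moved with the count. With each array centered on its median, only RPL22L1 of the 39 passed (12.7% of all probesets).

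Within cohorts 7a and 7b, with cohort as a covariate, 26 of 39 genes were lower in the 13 drinkers than in the 6 controls and 2 were higher. Among all probesets, 40% passed, 26.7% lower and 13.3% higher. Among the 900 with a mean of 11 or over, 35.6% were lower and 17.8% higher, and 20 of the 25 genes in that range were lower. Of the large subunit, 17 of 26 genes were lower and 2 higher, with a median log2 difference of -0.26. Of the small subunit, 9 of 13 were lower and none higher, with a median of -0.29. Over all probesets the median was -0.07. Centering each array on its median, which took -0.08 from every difference, left 17 genes lower and 5 higher, against 18.3% and 18.8% of all probesets.

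Among the small subunit genes, RPS18, whose protein sits in the head of the subunit, had the largest difference. In cohort 7a it ranged from 12.81 to 12.98 in drinkers with a median of 12.90, and measured 13.29, 13.31, 13.35 and 13.43 in controls. In cohort 7b drinkers measured 13.07, 13.07, 13.29, 13.31 and 13.49, and controls 13.70 and 13.97. Every drinker lay below every control of its own cohort. RPS18 thus fell, with a difference of -0.50 (SE 0.07) at a limma adjusted p of 9.51e-06.

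RPS6, the ribosomal protein phosphorylated downstream of mTOR, had values of 12.88 to 13.07 in drinkers of cohort 7a with a median of 12.96, and 13.21, 13.23, 13.37 and 13.43 in controls. Drinkers of cohort 7b measured 13.03, 13.07, 13.22, 13.36 and 13.40 against 13.64 and 13.78 in controls. The groups did not overlap in either cohort, and RPS6 differed by -0.40 (SE 0.06, limma adjusted p = 6.29e-05). RPS3, which lines the entry channel for the mRNA and also acts in DNA repair, ranged in cohort 7a from 12.47 to 12.74 in drinkers with a median of 12.63, with controls at 12.93, 12.93, 12.94 and 12.97. For cohort 7b the drinkers measured 12.68, 12.79, 12.83, 13.02 and 13.08, and controls 13.37 and 13.51. RPS3 was separated in the same way, at -0.40 (SE 0.07, limma adjusted p = 6.84e-05).

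RPS15 and RPS21 completed the largest decreases of the small subunit. RPS15, another protein of the head, differed by -0.37 (SE 0.09, limma adjusted p = 0.00219). Its drinkers and controls overlapped in both cohorts. In cohort 7a drinkers reached 11.99 and controls began at 11.97, and in cohort 7b 1 drinker measured 12.52 and the lower control 12.43. RPS21 differed by -0.35 (SE 0.07, limma adjusted p = 0.000791), and its groups overlapped in cohort 7a only. Of the remaining small subunit genes, RPS7, RPS16, RPS26 and RPS27L were also lower, by -0.31 to -0.19. RPS9, RPS10, RPS19 and RPS28 did not pass, at 0.01, 0.11, 0.13 and -0.13. The RPS19 probeset had a mean of only 6.03.

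**Figure D1:**
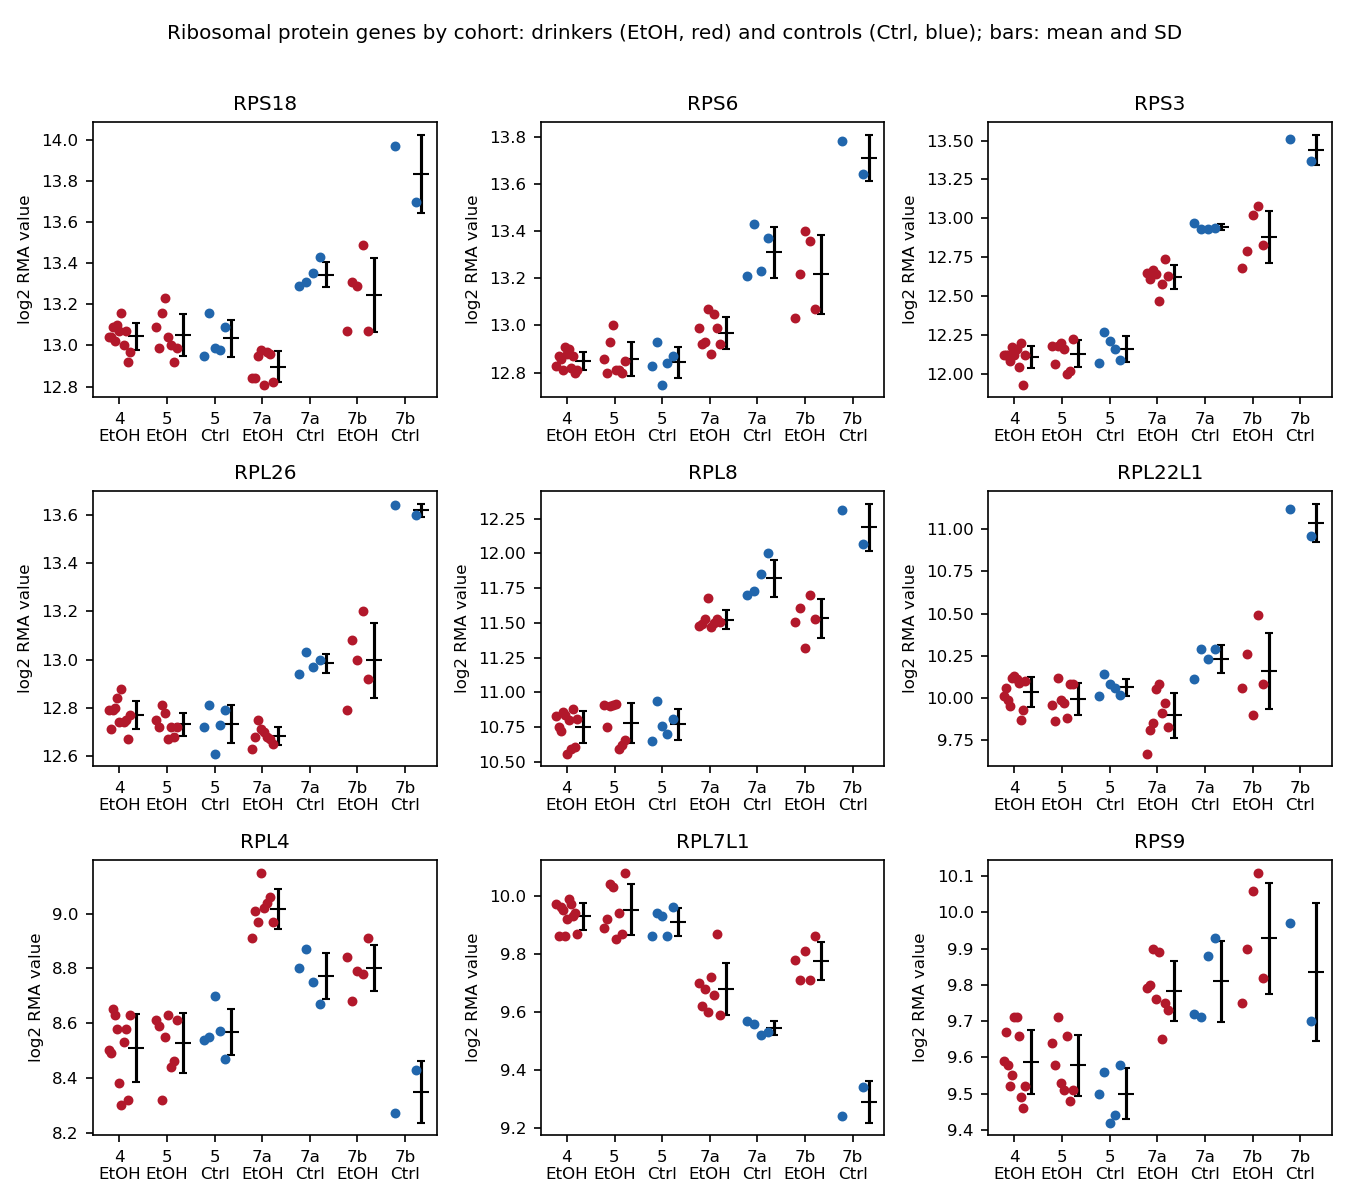
RMA value on the log2 scale (y axis) of 9 ribosomal protein genes in each cohort and treatment (x axis), 1 point per animal, with bars for mean and SD. In cohorts 7a and 7b drinkers lie below controls for RPS18, RPS6, RPS3, RPL26, RPL8 and RPL22L1 and above them for RPL4 and RPL7L1, while in cohort 5 drinkers and controls overlap for each gene shown.

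Among the large subunit genes, RPL22L1 had the largest difference. It is a paralog of RPL22 that can take its place in the ribosome. In cohort 7a drinkers ranged from 9.67 to 10.08 with a median of 9.88, and controls measured 10.11, 10.23, 10.29 and 10.29. The drinkers of cohort 7b measured 9.90, 10.06, 10.08, 10.26 and 10.49, and controls 10.96 and 11.12. The groups did not overlap, and RPL22L1 fell by 0.52 on the log2 scale (SE 0.09, limma adjusted p = 0.000187). RPL22 itself, an RNA-binding protein of the large subunit, overlapped between treatments in both cohorts and differed by -0.14 (SE 0.08, limma adjusted p = 0.142).

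RPL26, a protein at the exit of the tunnel that also binds p53 mRNA, had narrow groups. In cohort 7a drinkers ranged from 12.63 to 12.75 with a median of 12.68, and controls measured 12.94, 12.97, 13 and 13.03. Drinkers of cohort 7b measured 12.79, 12.92, 13, 13.08 and 13.20, and controls 13.60 and 13.64. RPL26 did not overlap in either cohort and differed by -0.41 (SE 0.06, limma adjusted p = 4.63e-05). RPL8, a protein close to the peptidyl transferase center, ranged from 11.47 to 11.68 in drinkers of cohort 7a with a median of 11.51, against 11.70, 11.73, 11.85 and 12 in controls. The cohort 7b drinkers measured 11.32, 11.51, 11.53, 11.61 and 11.70, and controls 12.07 and 12.31. RPL8 likewise did not overlap and differed by -0.42 (SE 0.07, limma adjusted p = 0.000116).

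RPL9 and RPL31 differed more in cohort 7b than in cohort 7a. RPL9, a protein at the base of the stalk, was at -0.43 over both cohorts (SE 0.09, limma adjusted p = 0.000817), with -0.33 in cohort 7a, where the groups overlapped (limma adjusted p = 0.0524 alone), and -0.60 in cohort 7b. RPL31, which lies at the tunnel exit, differed by -0.37 (SE 0.14, limma adjusted p = 0.0327), with -0.05 in cohort 7a and -0.99 in cohort 7b. Cohort 7a alone did not carry that call (limma adjusted p = 0.810). The RPL31 probeset had a mean of 6.24.

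RPL4 and RPL7L1 were the 2 genes that were higher in drinkers. RPL4, a core protein with a loop that reaches into the exit tunnel, ranged from 8.91 to 9.15 in drinkers of cohort 7a with a median of 9.01, against 8.67, 8.75, 8.80 and 8.87 in controls. Drinkers of cohort 7b measured 8.68, 8.78, 8.79, 8.84 and 8.91, and controls 8.27 and 8.43. Every drinker lay above every control of its cohort, and RPL4 was higher by 0.32 (SE 0.06, limma adjusted p = 0.000211).

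RPL7L1 is a relative of RPL7 that acts in assembly of the large subunit rather than in the finished ribosome. In cohort 7a drinkers ranged from 9.59 to 9.87 with a median of 9.67, against 9.52, 9.53, 9.56 and 9.57 in controls. The drinkers of cohort 7b measured 9.71, 9.71, 9.78, 9.81 and 9.86, and controls 9.24 and 9.34. Drinkers were again above controls throughout, and RPL7L1 was higher by 0.26 (SE 0.06, limma adjusted p = 0.00266). In cohort 7a alone the difference was 0.13 and did not pass (limma adjusted p = 0.169). The other 3 probesets of RPL7L1, with lower means, had log2 differences of 0.00, -0.07 and -0.33, and none passed.

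**Figure D2:**
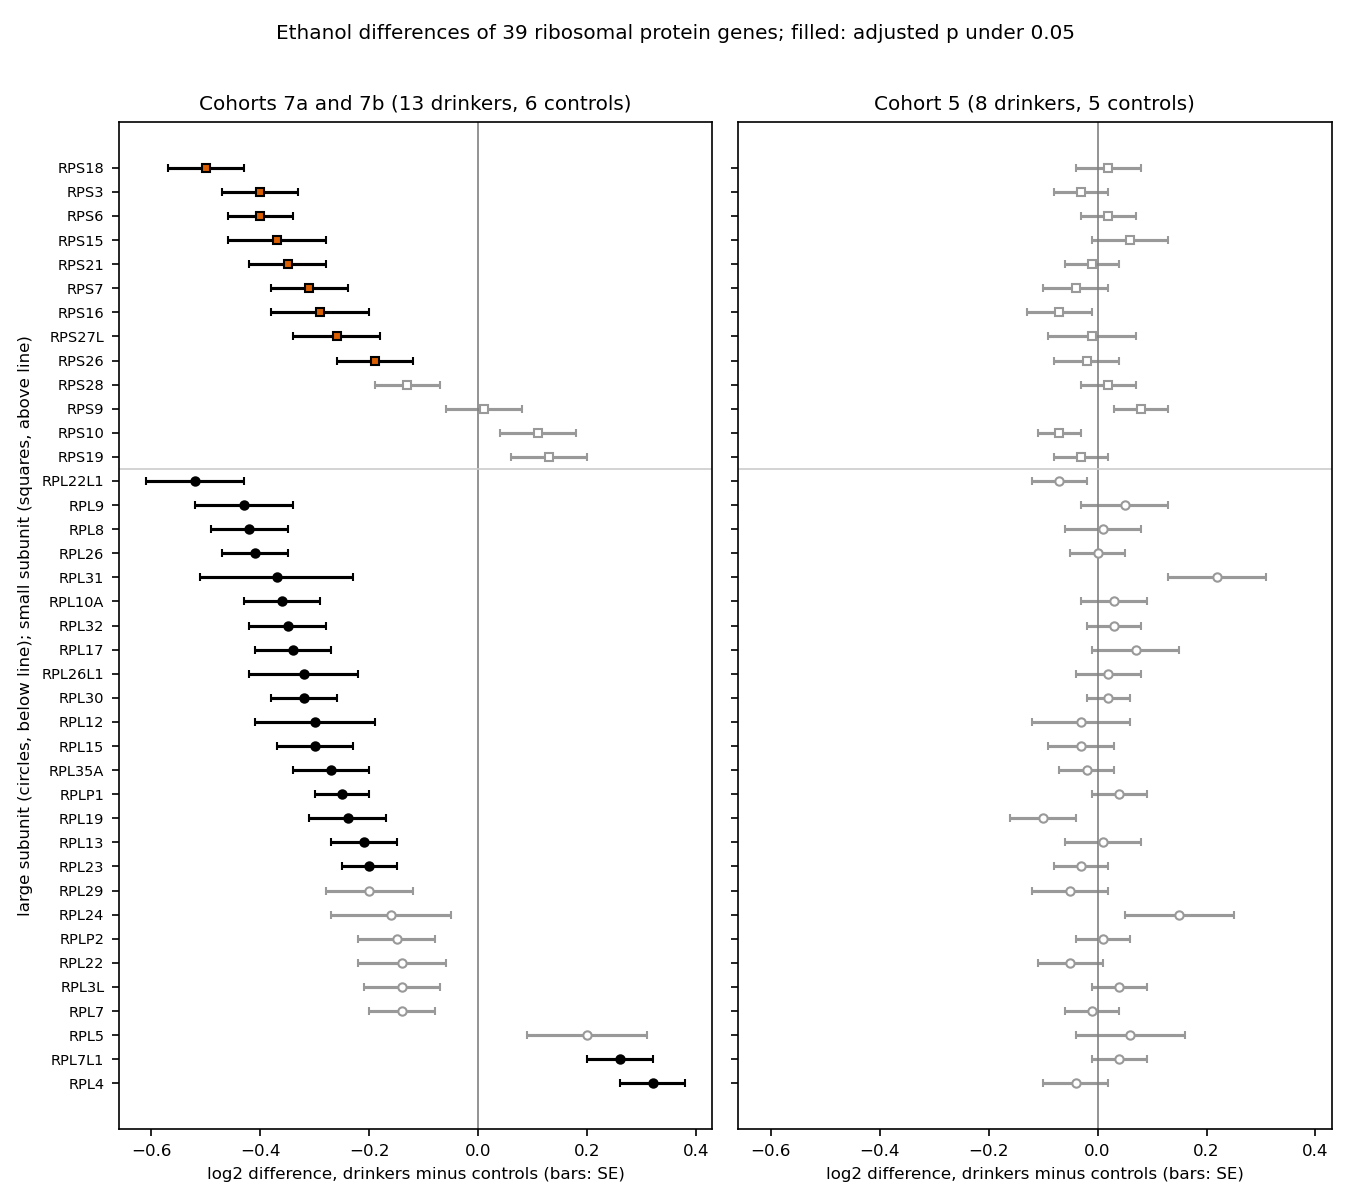
Log2 difference between drinkers and controls (x axis, with SE) for each of the 39 genes (y axis), in cohorts 7a and 7b on the left and in cohort 5 on the right; filled symbols passed at an adjusted p under 0.05. On the left 28 genes are filled, 26 of them below 0, and on the right none is.

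Each cohort alone gave the same picture in part. Between drinkers and controls, 32 of 39 genes had a negative difference in both cohorts and 4 a positive one in both, while 48.3% of all probesets were negative in both. In cohort 7a, 11 genes had every drinker below every control and 3 had every drinker above, against 6.49% and 4.55% of all probesets. In cohort 7b, with 2 controls, 29 genes had every drinker below and 2 every drinker above, against 27.6% and 15.6% of all probesets. Of the 39 genes, 11 lay below without overlap in both cohorts, namely RPL8, RPL13, RPL17, RPL22L1, RPL23, RPL26, RPL30, RPS3, RPS6, RPS7 and RPS18, against 5.22% of all probesets. RPL4 and RPL7L1 lay above in both, against 3.76%.

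Differences were larger in absolute size in cohort 7b than in cohort 7a for 35 of 39 genes. The matching share of all probesets was not computed, so this count cannot be called particular to these genes. The median log2 difference of the large subunit was -0.20 in cohort 7a and -0.36 in cohort 7b, and that of the small subunit was -0.21 and -0.39. Over all probesets it was -0.07 and -0.06. In separate fits 17 genes passed in cohort 7a, against 21.7% of all probesets, and 19 in cohort 7b, against 27.4%. RPL26L1, a close paralog of RPL26, differed by -0.07 in cohort 7a and by -0.79 in cohort 7b, and by -0.32 over both (SE 0.10, limma adjusted p = 0.0168). RPL26L1 did not pass in cohort 7a alone (limma adjusted p = 0.537), where drinkers and controls overlapped.

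**Figure D3:**
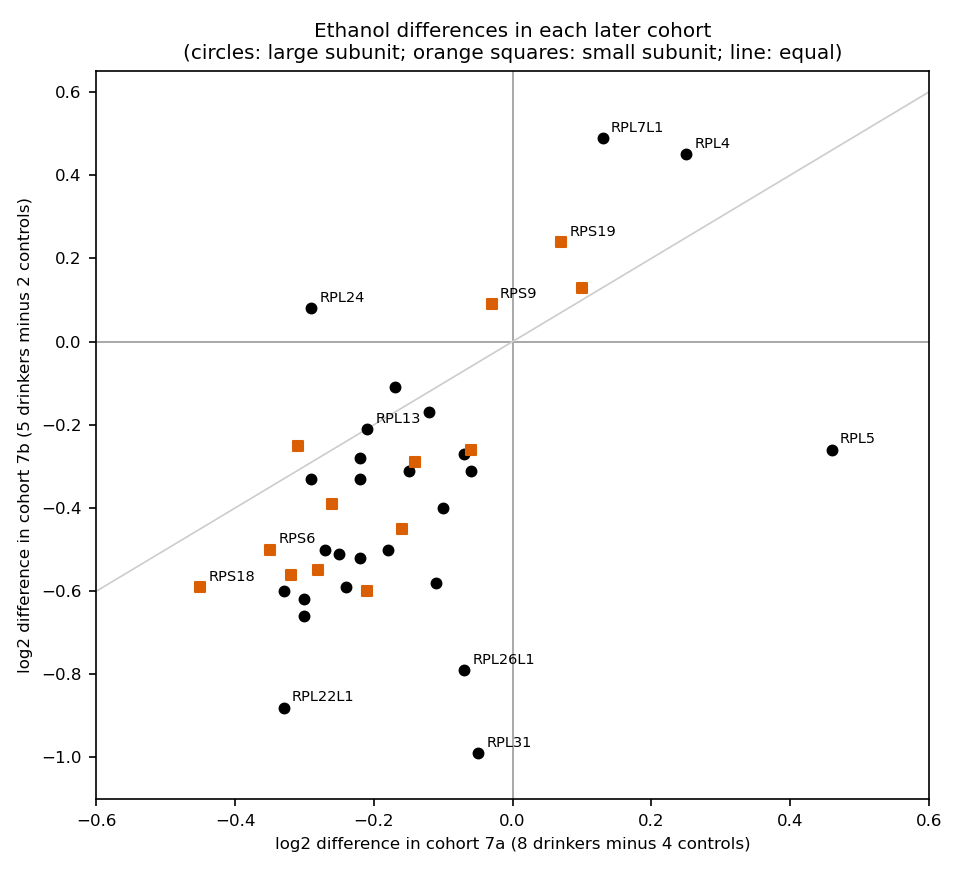
Log2 difference between drinkers and controls in cohort 7a (x axis, 8 against 4 animals) and in cohort 7b (y axis, 5 against 2) for each of the 39 genes, with circles for the large and squares for the small subunit. Of the 39 genes 32 lie below 0 on both axes, and 35 lie farther from 0 in cohort 7b, with RPL5, RPL24 and RPS9 differing in sign.

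In cohort 5 none of the 39 genes passed, against 0.00414% of all probesets called higher and 0.0% lower. An unadjusted p under 0.05 in limma was reached by 1 of the 39, against 1148 of the 24151 probesets tested. The median log2 difference was 0.01 over the large and -0.01 over the small subunit, and no gene separated drinkers from controls, against 0.0621% of all probesets with every drinker lower and 0.104% with every drinker higher. RPS18 ranged from 12.92 to 13.23 in drinkers, with a median of 13.02, and measured 12.95, 12.98, 12.99, 13.09 and 13.16 in controls, a difference of 0.02 (SE 0.06, limma adjusted p = 0.980). RPS6 differed by 0.02 (SE 0.05) and RPL26 by 0.00 (SE 0.05). RPL31, the gene with an unadjusted p under 0.05, differed by 0.22 (SE 0.09, limma adjusted p = 0.936).

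The ethanol difference itself differed between the sets. In the interaction of treatment and set, cohorts 7a and 7b minus cohort 5, 20 genes had a more negative difference in the later set and 2 a more positive one, against 18.3% and 9.03% of all probesets (27.3% in all). With arrays centered on their medians the split was 15 and 4, against 11.7% and 13.2%. The more negative ones were 14 of the large and 6 of the small subunit, led among those with means over 7 by RPS18 at -0.52 (SE 0.08, limma adjusted p = 9.17e-06), RPL9 at -0.48 and RPL22L1 at -0.45. The more positive ones were RPL4 at 0.36 (SE 0.08, limma adjusted p = 0.00126) and RPL7L1 at 0.22 (SE 0.07, limma adjusted p = 0.0233). Only cohort 5 supplied controls for the earlier set, so cohort, kit and processing differ together here.

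Small and large subunit levels ran close to each other across groups. With each gene set to its own mean, the small subunit mean minus the large subunit mean lay between -0.06 and 0.11 in all 43 animals. In cohort 7a it was -0.01 ± 0.02 in drinkers (SD, n = 8) and 0.03 ± 0.04 in controls (SD, n = 4), with ranges of -0.05 to 0.02 and 0.00 to 0.08. In cohort 5 it was -0.01 ± 0.02 in drinkers (SD, n = 8) and 0.01 ± 0.05 in controls (SD, n = 5). In cohort 7b it was 0.01 ± 0.08 in drinkers (SD, n = 5), from -0.05 to 0.11, and -0.06 to -0.05 in controls. Over all 43 animals the level of either subunit spread more, from -0.18 to 0.50 for the large and -0.13 to 0.45 for the small. Within a group this did not always hold. In drinkers of cohort 7b the SD of the large subunit mean was 0.05. In cohort 7a the large subunit mean was -0.04 ± 0.03 in drinkers (SD, n = 8) and 0.10 ± 0.06 in controls (SD, n = 4), and the small subunit mean -0.05 ± 0.03 and 0.13 ± 0.03. In cohort 7b, the 5 drinkers had large subunit means of 0.05 to 0.17 and the small subunit means of 0.01 to 0.27, all below the 2 controls. These means rest on the 39 genes as chosen and are given without a test.

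**Figure D4:**
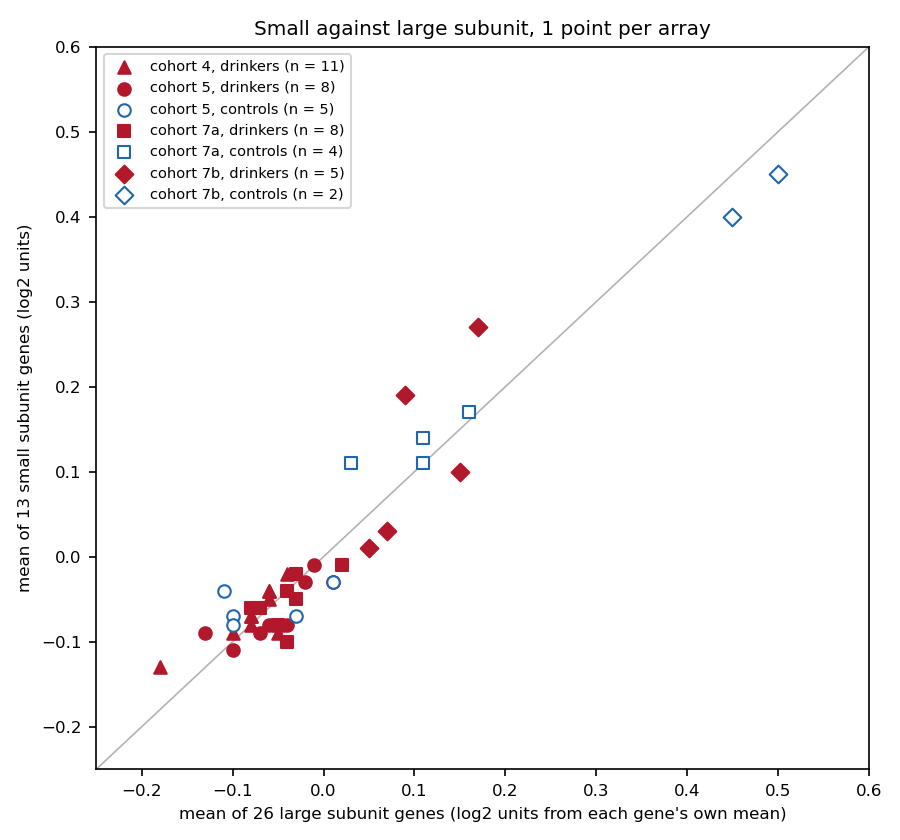
Mean of the 13 small subunit genes (y axis) against the mean of the 26 large subunit genes (x axis), both in log2 units from each gene's own mean over the 43 arrays, with 1 point per array; the line marks equal means. Points follow the line within -0.06 to 0.11, and the 2 controls of cohort 7b lie at 0.45 and 0.50 for the large subunit.

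Groups of neighboring proteins were described over cohorts 7a and 7b. Of the stalk, which recruits elongation factors, 3 of 4 proteins were measured, with RPLP1 at -0.25 (SE 0.05, limma adjusted p = 0.000655) and RPL12 at -0.30 (SE 0.11, limma adjusted p = 0.0338). RPLP2, the partner of RPLP1, was at -0.15 and did not pass (SE 0.07, limma adjusted p = 0.107). At the tunnel exit 4 of 5 measured genes were lower, with a median of -0.34. In the head of the small subunit 4 of 7 were lower, with a median of -0.29, and RPS10, RPS19 and RPS28 did not pass. Of 7 measured genes in which variants cause Diamond-Blackfan anemia, an inherited failure of red cell formation, 4 were lower, namely RPL26, RPL35A, RPS7 and RPS26. RPL5, RPS10 and RPS19 of that list did not pass, with low probeset means of 5.57 for RPL5 and 6.03 for RPS19. Among all probesets the share lower was 26.7%, as above.

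The 5 measured paralogs of ribosomal proteins did not share a direction. RPL22L1, RPL26L1 and RPS27L, a p53 target, were lower and RPL7L1 was higher. RPL3L, the form of RPL3 found in striated muscle, was at -0.14 and did not pass (SE 0.07, limma adjusted p = 0.103). The RPL3L and RPS27L probesets had means of 4.21 and 3.57, near the lower end of the scale.

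Levels were also compared between the sets within each treatment. In controls of cohorts 7a and 7b, 26 of 39 genes were higher than in controls of cohort 5 and 4 were lower. Among all probesets 54.8% passed, with 36.9% higher. Cohorts 7a and 7b were weighted equally there, although cohort 7b held 2 controls. The large subunit mean was -0.07 in controls of cohort 5, 0.10 in those of cohort 7a and 0.48 in those of cohort 7b. The small subunit mean was -0.06, 0.13 and 0.42. Some calls rested on cohort 7b, as for RPL35A, with control means of 12.91, 12.93 and 13.49. In drinkers of cohorts 7a and 7b, 17 genes were higher than in drinkers of cohorts 4 and 5 and 7 were lower. The shares of all probesets were 35.5% and 29.3%, 64.7% in all. Centering each array on its median took 0.23 from every difference between controls and 0.15 from every difference between drinkers. The split then became 18 higher and 5 lower in controls, where 20.8% of all probesets were higher and 41.2% lower. In drinkers it became 12 higher and 21 lower, against 22.5% and 52.0%, so that the larger side turned. Of the 39 genes, 30 passed in controls and 24 in drinkers as deposited, and 23 and 33 after centering.

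RPL8, RPS3 and RPL12 had the largest set differences. RPL8 averaged 10.77 in controls of cohort 5 and was higher in later controls by 1.23 (SE 0.08, limma adjusted p = 3.11e-17). In drinkers RPL8 was higher by 0.76 (SE 0.05, limma adjusted p = 1.62e-18). RPS3 was higher by 1.03 in controls and 0.63 in drinkers, and RPL12 by 1.03 and 0.68. These differences exceed the shift from centering and are larger than any ethanol difference of the same genes.

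RPL7L1, RPL5 and RPS10 ran the other way. In later controls RPL7L1 was lower, at -0.49 (SE 0.05, limma adjusted p = 2.81e-11) and at -0.21 in later drinkers. RPL5, which carries the 5S RNA into the large subunit, was at -0.40 and -0.35, and RPS10 at -0.40 and -0.24. For RPL5 the difference between controls rested on cohort 7a, whose controls averaged 4.90. The cohort 7b controls averaged 5.74, near the 5.72 of the earlier controls. The RPL5 probeset had a mean of only 5.57.

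Within a set, drinkers of cohorts 4 and 5 passed the limma test in 0 of the 39 genes and in 0.0% of all probesets. An unadjusted p under 0.05 in limma was reached by 2 of the 39, against 909 of the 24151 probesets tested. Drinkers of cohort 7b had 15 genes higher and 1 lower than drinkers of cohort 7a, against 4.54% and 7.32% of all probesets (11.9% in all). Among the 900 probesets with a mean of 11 or over, 14% were higher and 11.9% lower, and 11 of the 25 genes in that range were higher. RPL10A led with ranges of 11.53 to 11.78 in cohort 7a and 11.98 to 12.26 in cohort 7b, which do not overlap, and a difference of 0.48 (SE 0.06, limma adjusted p = 1.25e-06). RPL26 was higher by 0.31 and RPS18 by 0.35. RPL4 was the gene that was lower, by -0.22 (SE 0.06, limma adjusted p = 0.0147).

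Other probesets bore on several of these genes. Of 17 genes with more than 1 probeset, 7 had the same call for every probeset in cohorts 7a and 7b, and 2 had calls in opposite directions. For RPL13 the chosen probeset, with a mean of 12.33, was at -0.21 and another, with a mean of 7.66, at 0.74 (SE 0.14, limma adjusted p = 0.000244). For RPS16 the chosen probeset, with a mean of 5.78, was at -0.29 and another, with a mean of 5.66, at 0.24 (SE 0.09, limma adjusted p = 0.0421). The other probeset of RPS3, with a mean of 9.81, was at 0.16, and that of RPL26, with a mean of 9.89, at 0.05, and neither passed.

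Probesets that name a ribosomal protein gene beside another symbol were outside the rule. There were 31 of them among those tested, and 27 were lower in drinkers of cohorts 7a and 7b and none higher, with a median of -0.32. Among all probesets 26.7% were lower and 13.3% higher, with a median of -0.07. Some of the 31 name the same gene, and some name a gene of the 39. For RPL5 the chosen probeset, with a mean of 5.57, was at 0.20 and did not pass. It was above controls without overlap in cohort 7a and below them in cohort 7b. Both probesets that name RPL5 with another symbol, with means of 12.88 and 12.01, were at -0.46 (limma adjusted p = 4.21e-05 and 0.000198). A probeset that names RPS16 with another symbol had a mean of 13.08 and was at -0.36 (limma adjusted p = 0.000177). Near-identical copies of ribosomal protein genes can share probes, so values of probesets ending in s_at or x_at, which represent 12 of the 39 genes, are uncertain in this respect.

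Other parts of the translation machinery were read from fixed lists in cohorts 7a and 7b, where 26.7% of all probesets were lower and 13.3% higher. Of 5 measured ribosome-linked genes outside the symbol rule, 4 were lower, namely FAU, which encodes a small subunit protein, RACK1, a scaffold on the small subunit, RPL36AL and BTF3, a chaperone at the tunnel exit. RACK1 was at -0.39 (SE 0.06, limma adjusted p = 3.73e-05). Of 62 mitochondrial ribosomal protein genes, 61.3% (38) were lower and 6.45% (4) higher, with a median of -0.34. Of 39 translation factor genes, 48.7% (19) were lower and 12.8% (5) higher, the latter near the share of all probesets, with a median of -0.18. They include EIF3L at -0.72 and EIF4E, the cap-binding protein, at 0.91 (SE 0.10, limma adjusted p = 1.16e-06). That list also took in EEF1AKMT2 and EEF1AKMT3, methyltransferases that act on an elongation factor.

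Ribosome assembly and mTOR genes were mixed. Of 46 measured genes of ribosome biogenesis, 19.6% (9) were lower and 26.1% (12) higher, with a median of 0.02. NPM1, a nucleolar chaperone, was at -0.38 and SBDS, which releases a factor from new large subunits, at -0.57, while NCL, the nucleolar protein nucleolin, was at 0.32. TSR2, an escort of the small subunit protein RPS26, was at 2.07 (SE 0.13, limma adjusted p = 8.99e-10). Of 16 measured genes of mTOR signaling and control of terminal oligopyrimidine mRNAs, 25% (4) were lower, near the share of all probesets, and 43.8% (7) higher. LARP1, which binds the start of these mRNAs, was higher by 0.45 (SE 0.07, limma adjusted p = 3.58e-05), and RHEB, the activator of mTOR complex 1, was lower by -0.52 (SE 0.07, limma adjusted p = 7.65e-06). In cohort 5 no gene of any of these lists passed in limma, with 3 biogenesis, 3 translation factor and 2 mitochondrial genes at an unadjusted p under 0.05. Of the 24151 probesets tested, 1148 reached that unadjusted threshold there.

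A measure of RNA quality differed by treatment in cohort 7a, and the microglia marker list in both later cohorts. The 3′ minus 5′ value of beta-actin on the array, which rises with truncated transcripts among arrays processed alike, was 1.26 ± 0.21 in drinkers (SD, n = 8) and 0.82 ± 0.06 in controls of cohort 7a (SD, n = 4), and the exact permutation test, two-sided, gave p = 0.00404. It was 1.10 ± 0.37 and 0.78 ± 0.04 in cohort 7b (exact permutation test, p = 0.190) and 4.54 ± 0.20 and 4.50 ± 0.21 in cohort 5 (exact permutation test, p = 0.737). With 5 drinkers and 2 controls, the exact test cannot fall under 0.05 in cohort 7b, so it decides nothing there. The 3′ minus 5′ value of GAPDH was 1.27 ± 0.13 in drinkers (SD, n = 8) and 1.08 ± 0.08 in controls of cohort 7a (SD, n = 4; exact permutation test, p = 0.0242). In cohort 7b it ran the other way, at 0.91 and 1.05 (exact permutation test, p = 0.571), and in cohort 5 it was 2.31 and 2.23 (exact permutation test, p = 0.420). With the actin value as a covariate, 25 genes passed in cohorts 7a and 7b, against 20.9% of all probesets, and with the RNA integrity number as a covariate 18 did, against 17.6%. The latter fit dropped 1 control of cohort 7b, for which no integrity number was at hand, and without that control and without the covariate 26 genes passed, against 33.2% of all probesets. With processing batch in the fit 25 did, against 31.7%. The summed level of 8 microglia markers ranged from 10.57 to 10.92 in drinkers and from 11.01 to 11.55 in controls of cohort 7a, and from 10.50 to 10.97 and 11.12 to 11.19 in cohort 7b. Of these 8, CX3CR1, P2RY12 and AIF1 were lower over cohorts 7a and 7b (37.5%, against 26.7% of all probesets). The other 5 did not pass, 2 of them with positive differences, and the median of the 8 was -0.18. The summed levels of 4 of 8 neuron markers and of 3 of 7 oligodendrocyte markers overlapped between treatments in cohort 7a. Summed levels on all arrays were 13.80 to 14.22 for neuron markers and 14.31 to 15.11 for 5 of 7 astrocyte markers. In cohort 7b the astrocyte sum was higher in drinkers, at 14.77 to 14.90, than in controls, at 14.49 to 14.52, and the sum of 5 endothelium markers was lower, at 9.95 to 10.10 against 10.30 to 10.31. The sum of 2 choroid plexus markers was lower there too, at 8.80 to 9.10 against 9.25 to 9.35. In cohort 7a the astrocyte, endothelium and choroid plexus sums overlapped between treatments. In cohort 7b 27.6% of all probesets had every drinker lower and 15.6% every drinker higher. Over cohorts 7a and 7b, 1 of 5 astrocyte markers was higher and 1 lower. For endothelium 1 of 5 was lower and for choroid plexus 1 of 2, with none higher. Of 4 measured interneuron markers, GAD2 was higher over cohorts 7a and 7b, at 1.76, PVALB and VIP were lower, at -0.64 and -0.59, and GAD1 did not pass, at 0.00. The part of these cell types and of RNA quality in the ribosomal protein differences was not tested further.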

How the data were processed

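RNA of the 43 animals was measured on a rhesus macaque gene array. Per the labels the authors normalized the scanner data by RMA with the affy package, and the deposited values are on the log2 scale, with no adjustment for processing batch. Of 52865 probesets, 25317 carried a gene symbol, and 24151 were tested once those below 3.5 on 80% or more of the arrays had been dropped. limma 3.58.1 in R 4.3.3 was fitted to all of these, with Benjamini-Hochberg adjustment over the whole table and a threshold of 0.05. The fit of all arrays took treatment alone, as in the study's design, and the other comparisons took cohort terms or group means. The paper adjusted its RMA data for processing batch with ComBat, an adjustment that the values fitted here lack unless stated. Named genes were those with the largest called differences per subunit and direction (up to 6 over all arrays and up to 5 in cohorts 7a and 7b), a fixed list of stalk, 5S, core and paralog genes, and the 3 smallest differences over all arrays. Other genes were named from the fixed lists or after their values were seen. Members and lists were chosen with earlier results of these data known. Of 84 fitting symbols in a RefSeq gene table, 45 had no such probeset. The 8 processing batches were recovered by setting the deposited values against batch-adjusted values in the study's supplement for 912 probesets. RNA integrity numbers, used only as a covariate, came from the same supplement and lacked 1 animal. Scripts were tested on simulated data. Each animal gave 1 array, and the number of animals, above all controls, limits the precision. No promoter or protein sequences were used here.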

Additional observations from a re-analysis of the deposited data

Results flagged for a closer look

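The ethanol difference of 16 of 28 named genes differed between the sets (limma interaction, cohorts 7a and 7b minus cohort 5, adjusted p under 0.05), against 27.3% of all probesets. Many of the named genes were picked for large differences in cohorts 7a and 7b, so the count is no independent evidence. On the log2 scale this was -0.60 for RPL31, -0.52 for RPS18, -0.48 for RPL9, -0.45 for RPL22L1, -0.43 for RPL8 and for RPS15, -0.42 for RPS6 and -0.41 for RPL26. It was -0.37 for RPS3, -0.34 for RPL26L1, RPL30 and RPS21, -0.29 for RPLP1 and -0.25 for RPL35A. It was 0.36 for RPL4 and 0.22 for RPL7L1.

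In 12 of 140 gene and group pairs, 1 animal lay far from the rest of its group. Chance gives about 1 in 20. In cohort 5, a control measured 11.69 for RPL12 against at most 11.42 in the others, and a control measured 6.07 for RPS16 against at most 5.88. A drinker of cohort 5 measured 4.08 for RPL3L, with the next at 4.25. Among drinkers of cohort 7a, lone values were 12.31 for RPL13, 9.87 for RPL7L1, 11.68 for RPL8 and 5.71 for RPS19. Among controls of cohort 7a they were 4.19 for RPL3L and 12.84 for RPLP1. Among drinkers of cohort 7b they were 12.74 for RPLP1, 12.52 for RPS15 and 3.07 for RPS27L.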

How the results depend on the processing

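Counts of genes passing in cohort 5 and between drinkers of cohorts 4 and 5 were 0 under every alternative tried. For cohorts 7a and 7b, 28 genes passed, against 40% of all probesets, with 18 (17.6%) when the RNA integrity number was a covariate and 17 (21.7%) in cohort 7a alone. Other alternatives gave 19 to 40, against 20.9% to 44.9% of all probesets, with 40 when all 67 probesets were counted. Counted that way, the comparisons between sets rose from 24 to 42 in drinkers and from 30 to 47 in controls, since more probesets were counted. In the fit of all arrays 9 genes passed, against 16.2% of all probesets, with 28 (33.3%) when cohort was a block, 17 (26.6%) with the actin value as a covariate, 16 (22.7%) with processing batch as a block, 3 (9.68%) without cohort 4, 1 (12.7%) with arrays centered on their medians and 0 (0.762%) with batch and the RNA integrity number in the fit, where limma left 11 genes at an unadjusted p under 0.05. With cohort as a block and the integrity number as a covariate 6 genes passed (4.89%). With values adjusted for processing batch and treatment alone in the fit, 8 passed (15.9%). For the fits with the integrity number, the share of all probesets at an unadjusted limma p under 0.05 was not computed. These fits dropped 1 control of cohort 7b. The cause was not tested. Leaving out each array in turn gave 2 to 18 genes over all arrays (7.12% to 21.2% of all probesets). For cohorts 7a and 7b it gave 23 to 31 (33.2% to 40.8%), and for the interaction 18 to 25 (22.5% to 29.2%). For the set differences it gave 23 to 25 in drinkers (63.2% to 64.9%) and 29 to 31 in controls (49.7% to 55.4%). Between drinkers of cohorts 7b and 7a it gave 13 to 18 (9.18% to 13%). Of 30 calls on named genes, none changed sign, and 11 held under every alternative that kept the chosen probeset. Alternatives that changed the probesets were not part of that count. For RPL13 and RPS16 another probeset was called in the opposite direction, as given above. Members with means of 7 or over, chosen after seeing the data, gave 25 of 33 genes in cohorts 7a and 7b, against 40% of all probesets. No paired analysis was possible because replicate numbers are not shared between groups. Few controls, 2 in cohort 7b, limit every value.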

Other observations

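The 45 ribosomal protein symbols without a probeset of their own include RPL3, RPL11, RPLP0, RPSA, RPS4X and RPS14, so the counts above describe 39 of 84 genes. Probesets that name RPSA or RPLP0 beside another symbol had, at their highest means of 13.46 and 13.33, log2 differences in cohorts 7a and 7b of -0.10 (limma adjusted p = 0.175) and -0.16 (limma adjusted p = 0.0493).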
